A study of Mus musculus with 12 samples.

Results

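RNA-Seq of mouse quadriceps gave 62 coding genes whose normalized counts were higher in all 4 libraries labelled KO than in any of the 8 other libraries. The genes were chosen by their measured values. A gene had to be marked as coding in the deposited tables and reach a value of 10 in at least 1 library. Its lowest KO value had to exceed all 8 values of the wild-type (WT) and AAV-treated libraries, and its mean of log2(value + 1) in KO had to be at least 2 above the mean of the other 8. Genes whose names start with Rpl, Rps, Nduf, Cacn, Kcn, Col, Eif, Mrp, Psm, Slc25, Hox or Tbx were left out. The 62 members are 62 of the 13184 coding genes that could have been picked, out of 15344 genes in the tables.

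The 12 libraries, 4 per group, each came from the quadriceps of 1 C57BL/6 mouse aged 6 months. No treatment is stated for the WT mice. KO mice lacked acid alpha-glucosidase (GAA) and received PBS. AAV mice were GAA KO as well and received AAV2/8-LSPhGAApA, which expresses human GAA from a liver-specific promoter, at 2e12 vector genomes per kg through the tail vein. Injected mice were male and 2 months old at injection. By label, the muscle of AAV mice had the KO genotype. The rule uses KO against the 8 others, and values on that contrast are given without a test. AAV against WT is the only contrast of labels that the rule does not use. The rule still holds the values of both groups below KO, so that the choice limits this contrast as well.

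GAA is the lysosomal enzyme that breaks down glycogen, and its loss in Pompe disease leaves lysosomes of muscle filled with glycogen. Skeletal muscle is built mostly of contractile fibres, with nerve, vessel, connective tissue and immune cells between them. Muscle also secretes factors of its own, of which myostatin is the best known, a ligand of the TGF-beta family that holds back muscle growth.

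The RNA counts of the targeted gene went against the labels. Which part of the gene the KO allele alters is not given in the sources used here. Gaa (ENSMUSG00000025579) had normalized counts of 342.9, 14640.2, 323.8 and 460.3 in WT 1 to 4, of 12151, 13074.5, 11936.2 and 12895 in KO 1 to 4, and of 946.8, 587, 499.6 and 9854.3 in AAV 1 to 4. All 4 libraries labelled KO were therefore high, as were WT 2 and AAV 4, and groups are named here by their label only. GAA activity and glycogen, which the study assayed in the same quadriceps, were not analysed here. Only RNA of Gaa is therefore set against the labels, and whether the labels match the animals was not tested. The rule gave 52 members without WT 2 and AAV 4, of which 50 are among the 62. Libraries held 22122233 to 47379737 counted reads. With bulk tissue, fewer cells of a type and less RNA per cell cannot be told apart.

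The same rule turned on other groups found fewer genes raised. It gave 26 genes raised in WT alone and 1 in AAV alone, against 62 in KO alone. In the opposite direction it gave 166 genes lowered in KO alone, 5 lowered in WT alone and none (0) lowered in AAV alone. Of the 13184 genes, 817 (6.20%) had all 4 KO values above the 8 others, and 1706 (12.9%) lay entirely above or below them. The members are the 62 of these 817 with a difference of at least 2. Their median difference was 2.72 on the log2(value + 1) scale and the largest was 6.32. A difference of at least 3 was reached by 23 members and one of at least 4 by 7.

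**Figure D1:**
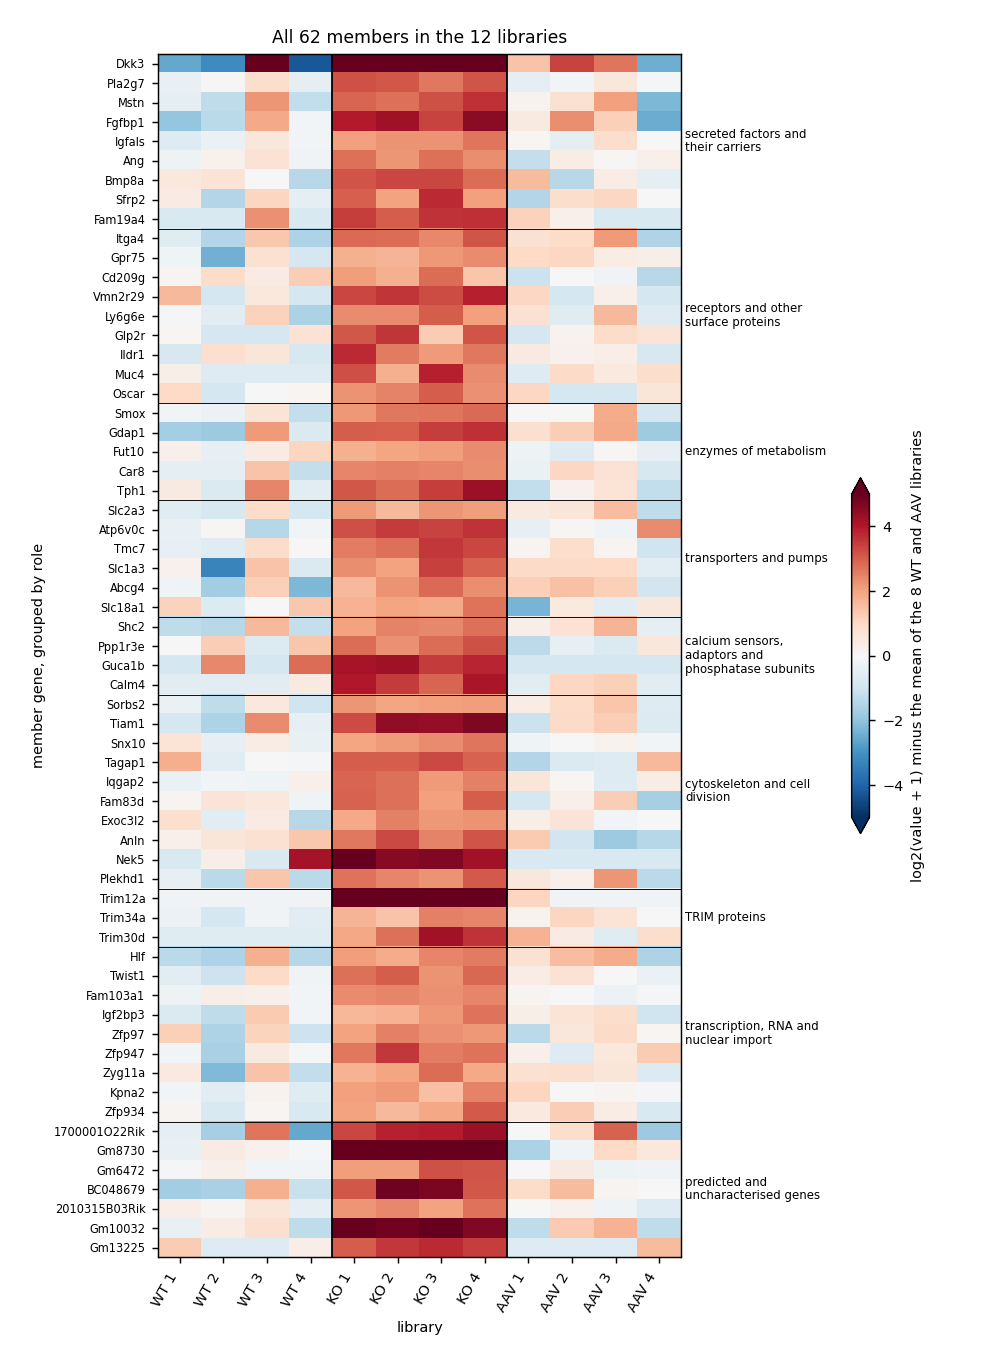
Heat map of log2(value + 1) minus the mean of the 8 WT and AAV libraries for each of the 62 members (rows, grouped by role) in the 12 libraries (columns). The 4 KO columns are red in every row, as the rule requires, and WT 3 and AAV 3 are red in many rows as well.

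Members differed widely in level. The mean of the 4 KO libraries was at least 1000 in 7 members, at least 100 in 28 and below 20 in 15. In 8 members a KO library rested on fewer than 10 reads, and 22 members had a value of 0 in at least 1 of the 8 others. The separation between the lowest KO value and the highest other value had a median of 0.83 (log2). It was at least 1 in 25 members and under 0.2 in 7. At the threshold, Gpr75 (2.001), Cd209g (2.006) and Trim34a (2.016) lay just inside, and Rerg (1.999), Gm14403 (1.964) and Shisa3 (1.948) just outside.

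Secreted factors and their carriers form one of the larger groups of members, with 9 genes. Dkk3 (ENSMUSG00000030772), a secreted glycoprotein of the Dickkopf family, had normalized counts of 7805, 5593.6, 4285.5 and 5758.7 in KO. It had 18.1, 11.69, 3473.8 and 4.88 in WT and 294.9, 1160.8, 701.5 and 19.27 in AAV. WT 3 came within 0.30 (log2) of the lowest KO library, while the other WT libraries and AAV 4 lay below 20. Its difference was 5.68. Pla2g7, the secreted phospholipase that hydrolyses platelet-activating factor, separated more cleanly. Its KO values were 4727.6, 4466.5, 3258.7 and 4648.2, and the 8 others ran from 376.3 to 949.6. KO averaged 4275 ± 686 (SD, n = 4) against 551 ± 208 (SD, n = 8), a difference of 3.02.

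Mstn encodes myostatin. Its KO values were 2191.4, 1945.5, 2639.8 and 3610.1. The WT values were 209.9, 116.9, 1316.5 and 122.9 and the AAV values 321.1, 492.3, 1190.5 and 59.65. WT 3 and AAV 3 were again the highest of the 8, and the difference was 3.14. Fgfbp1, which carries fibroblast growth factors out of the matrix, had 109.9 to 242.3 in KO and 0.92 to 52.35 in the others, a difference of 4.02. The other 5 secreted members, Igfals, Ang, Bmp8a, Sfrp2 and Fam19a4, were lower in level, and their differences lay within the group's range of 2.31 to 5.68. Igfals, the acid-labile subunit that holds insulin-like growth factors in the circulation, had the highest KO values of these 5, from 86.96 to 135.3.

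Mstn has a sequenced promoter window in RefSeq (GRCm38.p6), which is shown because myostatin is made mainly by muscle and E-boxes (CANNTG, read on both strands) are the sites of muscle basic helix-loop-helix factors. The window runs from 250 bases before to 50 bases after the gene's start, at chr1:53061390-53061689 on the + strand, and its 4 E-box matches are in capitals. 
Mstn promoter: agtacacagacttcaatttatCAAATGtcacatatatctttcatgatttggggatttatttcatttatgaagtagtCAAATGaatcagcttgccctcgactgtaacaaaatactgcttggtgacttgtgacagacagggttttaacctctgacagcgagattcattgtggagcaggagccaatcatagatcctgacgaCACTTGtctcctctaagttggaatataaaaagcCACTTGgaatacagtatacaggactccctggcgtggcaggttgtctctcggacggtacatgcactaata

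Across the members, 45 of 62 matched a window in the table, and of the 13184 coding genes 10278 did. An E-box was present in 29 of the 45 (64.4%) and in 64.0% of all windows. TATAAA was present in 9 of the 45 against 7.4% of all, and GGGCGG in 22 (48.9%) against 63.3%. CCAAT was found in 22 (48.9%) against 38.1%, TGACG in 10 (22.2%) against 30.4%, CACGTG in 3 (6.7%) against 10.1% and TGAGTCA in 1 (2.2%) against 3.6%. Every CACGTG is also an E-box. Member windows held a median of 11 CpG dinucleotides against 20, and 11 members (24.4%) had fewer than 5 against 9.1% of all. These are matches of letters only and no site is implied.

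Receptors and other surface proteins make up 9 members, most of them low. Itga4, the alpha 4 integrin chain that binds fibronectin and VCAM1, stood out by level. Its KO values were 756.5, 738, 551.5 and 920.4, against 68.77, 37.21, 264.6 and 35.11 in WT and 177.8, 196.3, 461.8 and 35.79 in AAV. AAV 3 lay 0.26 (log2) below the lowest KO library. The other 8 had KO means down to 9.81. Vmn2r29, a vomeronasal receptor gene, had 16.32 to 25.64 in KO and 0 to 4.52 in the others, with 10 reads over all 8 of them. Gpr75, a G protein-coupled receptor, and Cd209g, a C-type lectin of the DC-SIGN family, averaged 20.8 and 20.7 in KO. Ly6g6e, Glp2r, Ildr1, Muc4 and Oscar completed the group.

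Of the 5 enzymes of metabolism, Smox had the highest KO mean of all 62 members. Smox is spermine oxidase, which turns spermine back into spermidine. Its KO values were 13166.5, 17980.5, 18565.6 and 20587.5, its WT values 2642.2, 2356.8, 4545.1 and 1268.8, and its AAV values 2848.8, 2916.7, 10415.3 and 1597.7. AAV 3 alone came close to KO, 0.34 (log2) below its lowest library, and the difference was 2.58. Of the 10 polyamine genes in the tables, Smox and Sms, the spermine synthase, lay above all others in KO, and Oaz1 and Oaz2, the antizymes that restrain ornithine decarboxylase, lay below all others. Over all coding genes, 12.9% lay above or below all others. Amd1 differed by 2.32 but overlapped. The list's median difference was -0.19.

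Gdap1, a protein of the outer mitochondrial membrane that is mutated in a hereditary neuropathy, had 1303.4, 1291.3, 1771.8 and 2009.8 in KO. It had 48.86, 44.65, 712.6 and 96.55 in WT and 279.8, 381.6, 596.4 and 46.8 in AAV, with WT 3 the highest of the 8. Fut10, a fucosyltransferase, and Car8, a carbonic anhydrase-related protein without enzyme activity, showed tighter KO values of 391 ± 69.4 and 191 ± 10.5 (SD, n = 4). Tph1, the rate-limiting enzyme of peripheral serotonin synthesis, had 59.86 to 169.8 in KO and 2.75 to 46.26 in the others.

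**Figure D2:**
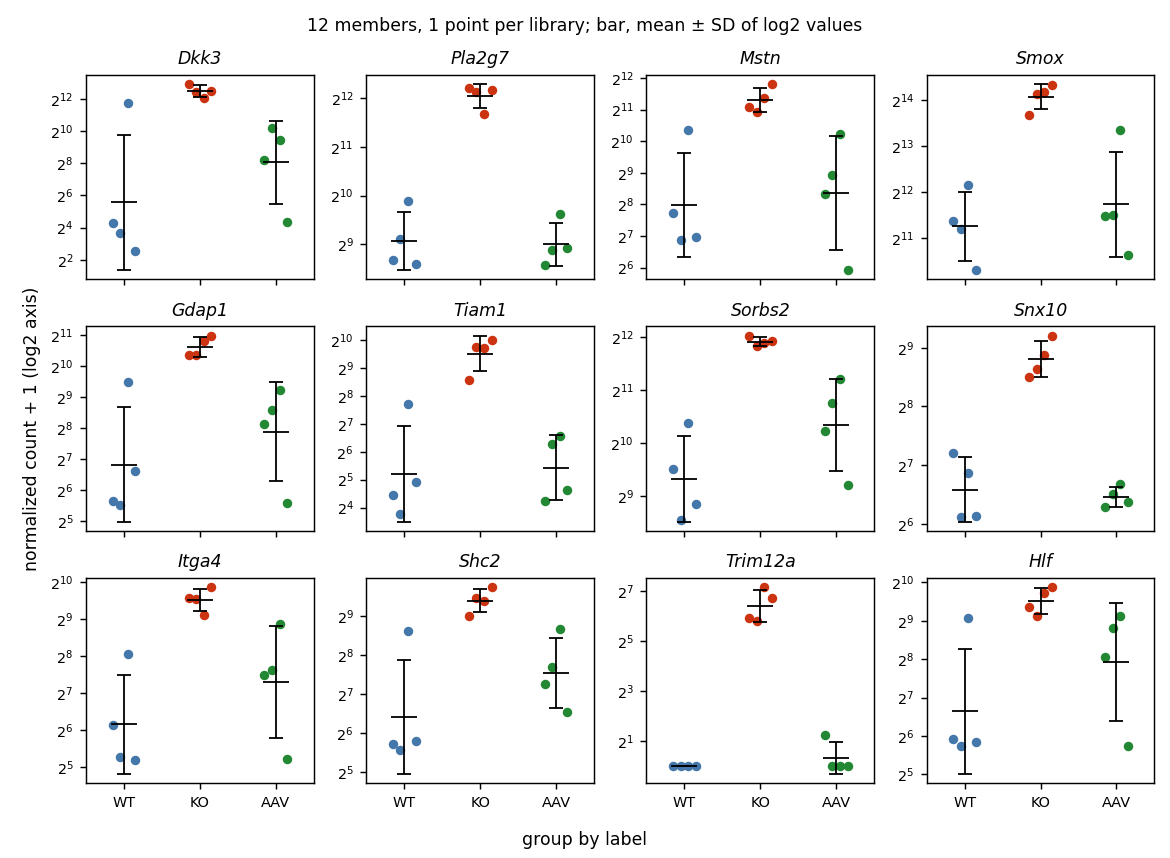
Normalized count plus 1 (log2 axis) of 12 members by labelled group, 1 point per library, with the mean ± SD of the log2 values (n = 4). KO points lie above all others in each panel, WT 3 is the highest WT point in every panel except Snx10 and Trim12a, and Trim12a is at 0 in 7 of the 8 other libraries.

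Transporters and pumps account for 6 members. Slc2a3, the glucose transporter GLUT3, had 659, 462.6, 693.9 and 642.8 in KO and 61.49 to 433.4 in the others, with AAV 3 only 0.09 (log2) below the lowest KO library. Tmc7, a transmembrane channel-like protein, separated by 1.63, with 238.7 to 466.6 in KO and 19.27 to 76.29 in the others. Slc1a3, a glial-type glutamate transporter, had 120.6 to 327.4 against 2.13 to 80.35. Atp6v0c, the proteolipid ring subunit of the proton pump that acidifies lysosomes, is treated with its copy below. Abcg4 and Slc18a1 were lower, with differences of 2.26 and 2.08.

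Signalling members included 4 calcium sensors, adaptors and phosphatase subunits. Shc2, an adaptor of receptor tyrosine kinases, had 507.3, 697.8, 667.8 and 843.5 in KO, against 51.58, 46.77, 387.1 and 54.62 in WT and 151.6, 205.4, 407.4 and 91.77 in AAV. Ppp1r3e, which brings protein phosphatase 1 to glycogen, had 63.77, 44.47, 64.17 and 84 in KO. Its WT values were 8.14, 21.26, 4.87 and 23.41 and its AAV values 2.76, 6.04, 4.72 and 12.85. Among other genes of the glycogen particle, Ppp1r3a (1.41), a muscle subunit of the same phosphatase, Phkb (0.91), of phosphorylase kinase, and Gyg (0.53), which primes glycogen, also lay above all others in KO, under the threshold of 2.

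Guca1b, a calcium sensor of retinal guanylate cyclase, had 19.58 to 33.35 in KO and 0 in 6 of the 8 others, with 8.5 in WT 2 and 11.7 in WT 4. Calm4, a calmodulin-like protein best known from skin, had 22.22, 15.39, 9.79 and 23.87 in KO and at most 2.36 elsewhere. Its 8 other libraries held 5 reads in all. Of the 13 calmodulin and myosin light chain kinase genes, Calm4 and Mylk4 (1.65) lay above all others in KO and Camk2b (-0.26) lay below them, 3 of 13 beside the 12.9% of all coding genes.

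The cytoskeleton and cell division held 10 members. Sorbs2, an adaptor of the Z-disc and of actin fibres, had 4181.7, 3632.7, 3786.2 and 3878.1 in KO and 375.3 to 2377.4 in the others. Its KO mean of 3870 ± 231 (SD, n = 4) was among the least variable of the abundant members. Tiam1, an exchange factor that activates Rac, had 378.8, 866.3, 844 and 1020.4 in KO. Its WT values were 20.81, 12.76, 206.2 and 29.26 and its AAV values 17.92, 76.52, 93.3 and 23.86, a difference of 4.19. Snx10, a sorting nexin of the endosome, had 362.3 to 589.8 in KO and 68.03 to 147.5 in the others.

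Nek5, a kinase of the NIMA family, had 61.84, 38.48, 40.24 and 30.06 in KO. It was at 0 in 6 of the 8 others, at 1.06 in WT 2 and at 29.26 in WT 4. WT 4 lay 0.04 (log2) below the lowest KO library, so that 1 library decides how far this member is separated. Iqgap2, Fam83d, Exoc3l2, Anln, Plekhd1 and Tagap1 completed the group, and its differences ran from 2.07 to 4.65.

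The 3 TRIM members lie in 1 cluster on chromosome 7. TRIM proteins are ubiquitin ligases, and this mouse cluster is known for its induction by interferon. Trim12a (ENSMUSG00000066258) had 58.94, 53.87, 139.2 and 102.6 in KO. It was at 0 in all WT libraries and in AAV 2, AAV 3 and AAV 4, with 1 read in AAV 1. Trim34a had 17.39, 14.54, 31.54 and 30.06 in KO and 2.13 to 11.07 in the others. Trim30d had 4.83, 9.41, 27.19 and 17.68 in KO, 0 in every WT library and 4.13, 1.01, 0 and 1.84 in AAV. In all 3 genes KO 3 and KO 4 were higher than KO 1 and KO 2. That order within KO held in 21 of the 62 members (33.9%) and in 17.1% of the 13184 genes. Trim34a starts at 104244457 and Trim12a ends at 104315466 (GRCm38), with 37660 bases between the pair, and Trim30d lies 154548 bases beyond Trim12a.

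The promoter windows of the 3 TRIM members are shown because the genes lie close together and have a like pattern. Capitals mark TTTCNTTTC and TTTCNNTTTC on either strand, the repeat found in elements bound by interferon regulatory factors, chosen after the windows were read. Overlapping matches run together.
Trim12a, chr7:104315446-104315745, - strand: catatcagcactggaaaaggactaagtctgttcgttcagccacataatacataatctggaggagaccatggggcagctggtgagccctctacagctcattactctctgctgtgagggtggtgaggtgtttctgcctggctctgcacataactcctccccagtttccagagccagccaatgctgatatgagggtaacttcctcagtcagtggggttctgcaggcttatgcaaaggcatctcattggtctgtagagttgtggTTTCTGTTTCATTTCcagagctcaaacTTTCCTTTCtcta
Trim30d, chr7:104507800-104508099, - strand: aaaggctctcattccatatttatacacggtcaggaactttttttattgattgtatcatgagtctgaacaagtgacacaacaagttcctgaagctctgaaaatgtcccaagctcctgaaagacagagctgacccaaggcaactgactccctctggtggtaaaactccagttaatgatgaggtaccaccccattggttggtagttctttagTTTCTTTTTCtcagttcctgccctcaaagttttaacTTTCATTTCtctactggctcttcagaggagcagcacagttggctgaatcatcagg
Trim34a, chr7:104244207-104244506, + strand: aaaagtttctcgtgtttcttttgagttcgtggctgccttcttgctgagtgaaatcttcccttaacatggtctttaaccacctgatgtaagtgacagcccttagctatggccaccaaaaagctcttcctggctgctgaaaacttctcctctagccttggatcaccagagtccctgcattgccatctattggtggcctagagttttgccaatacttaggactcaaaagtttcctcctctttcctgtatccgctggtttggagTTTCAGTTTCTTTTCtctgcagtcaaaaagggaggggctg

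Both repeats occur in each of the 3 windows. TTTCNTTTC was present in 2.4% and TTTCNNTTTC in 2.9% of the 10278 windows. Each was found in 5 members, 3 of which are the TRIM windows it was chosen from, so that the members' share is not comparable with that of all windows.

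Transcription, RNA and nuclear import contributed 9 members. Hlf, a PAR-type leucine zipper factor with circadian expression, had 658, 562.7, 845.1 and 934.6 in KO. Its WT values were 59.72, 52.09, 538.1 and 56.57 and its AAV values 264.6, 450, 561 and 52.31. AAV 3 nearly reached the lowest KO value, so that Hlf had the smallest separation of the 62. Twist1, a basic helix-loop-helix factor, had 164.2 to 280.5 in KO and 15.95 to 67.37 in the others. Fam103a1, named Ramac in GENCODE M21 and an activator of the mRNA cap methyltransferase, was uniform, at 88.5 ± 4.63 in KO (SD, n = 4) and 16.3 ± 2.66 in the others (SD, n = 8). Igf2bp3, an RNA-binding protein of fetal tissue, averaged 32.1 in KO and overlaps Malsu1 on the opposite strand, which went the other way (1193 in WT, 571 in KO and 612 in AAV). Zfp97, Zfp947, Zyg11a, Kpna2 and Zfp934 were lower.

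Zfp947, a zinc finger gene of the KRAB type on chromosome 17, stood in a raised neighbourhood. Of the 18 other coding genes within 1000000 bases, 9 lay above all others in KO and none (0) below. These were Zfp677, Zfp52, Zfp948, Zfp942, Zfp943, Gm4944, Zfp944, Zfp758 and Zfp946, with differences of 1.10 to 1.83, all under the threshold. Their separation from the highest other library ran from 0.01 (Zfp948) and 0.06 (Zfp942) to 0.76 (Zfp944) (log2). Zfp943 was the most abundant, with 605.8 to 835.6 in KO and 80.79 to 518.6 in the others. Of the 8 other libraries, WT 2 was the lowest in all 9 genes and WT 3 the highest in 8, with Zfp948 the exception. Over the neighbourhoods of all members, 82 genes lay above and 85 below among 1198 gene and neighbour pairs, which is 13.9% against the 12.9% of all coding genes. By chromosome, 11 members (17.7%) were on chromosome 7, the 3 TRIM genes among them, and 8 (12.9%) on chromosome 17, which hold 7.7% and 4.8% of the genes that could be picked.

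Members with near-identical copies need care, because reads that mapped to more than 1 place were dropped. Of the 62, 11 had a transcript in the tables with at least 90% identity over at least 50% of the shorter one and 200 bases. In 5 of these the sum of the member and its copies still lay above all others in KO, and in 6 it did not. The 6 are Gm8730, Atp6v0c, Trim30d, Cd209g, Gm13225 and Zfp97. Trim30d with Trim30a summed to 67.6 to 100.1 in KO and 10.6 to 83.6 in the others, and Cd209g with Cd209f to 31.8 to 83.8 and 6.4 to 34.9. Gm8730, with the largest difference at a pseudocount of 1 (6.55 at 0.1, where Trim12a had 9.20 and Nek5 7.22), is a processed pseudogene of Rplp0 in GENCODE M21, although the tables mark it as coding. It had 452.2, 404.5, 723.3 and 747.1 in KO and 1.38 to 12.99 in the others. Rplp0, a protein of the large ribosomal subunit, had 5393.4, 5291.7, 2770.3 and 3076.1 in KO and 7407.9 to 11932.6 in the others. Gm8730 and its 5 copies summed to a mean of 5243.2 in KO, 10169.5 in WT and 7914.4 in AAV, so that the sum was lower in KO. KO 3 and KO 4 were highest in Gm8730 and lowest in Rplp0. Of the other copies, Gm8199 (114.6 to 255.5 in KO against 1.01 to 6.33) and Rplp0-ps1 (29.93 to 58.73 against 0.92 to 5.3) were high in KO as well.

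Atp6v0c and Gm15487, a processed pseudogene on chromosome 6, ran opposite to each other. Atp6v0c had 344.9, 425, 392.7 and 454.5 in KO, 28.05, 38.27, 12.99 and 33.16 in WT and 27.56, 38.26, 31.89 and 193.6 in AAV, with AAV 4 apart from the rest. Gm15487 had 3.86, 5.13, 1.09 and 2.65 in KO, 330.6 to 583.6 in WT and 94.52 to 257.5 in AAV. The sum of both genes overlapped, with 348.8 to 457.1 in KO and 175 to 621.9 in the others, and its difference was 0.29 in place of 3.43. Tagap1, a GTPase-activating protein of T cells, and Tagap also ran opposite. Tagap1 had 368.7 to 473.1 in KO and 16.54 to 170.1 in the others, and Tagap 0 to 4.35 against 16.52 to 44.65. Here the sum stayed above all others in KO, with a difference of 2.35.

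A stretch of each pair shows how few bases separate a member from its copy. Over the aligned transcripts Gm8730 and Rplp0 differed at 12 of 954 bases (98.7% identity), and Atp6v0c and Gm15487 at 1 of 387 (99.7%). Each stretch is the 90 bases with the most differences, taken from the GENCODE M21 transcripts, and capitals mark the bases that differ. The member stretches lie at chr8:102865352-102865441 (Gm8730, - strand) and chr17:24164794-24164883 (Atp6v0c, - strand) of GRCm38, each within a single exon.
Gm8730: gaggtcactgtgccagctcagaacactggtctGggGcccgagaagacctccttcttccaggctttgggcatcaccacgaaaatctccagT
Rplp0: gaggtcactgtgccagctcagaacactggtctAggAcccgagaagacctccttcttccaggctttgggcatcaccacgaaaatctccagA
Atp6v0c: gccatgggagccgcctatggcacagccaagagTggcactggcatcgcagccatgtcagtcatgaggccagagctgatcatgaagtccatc
Gm15487: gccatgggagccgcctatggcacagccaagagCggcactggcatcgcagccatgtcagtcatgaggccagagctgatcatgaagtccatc

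**Figure D3:**
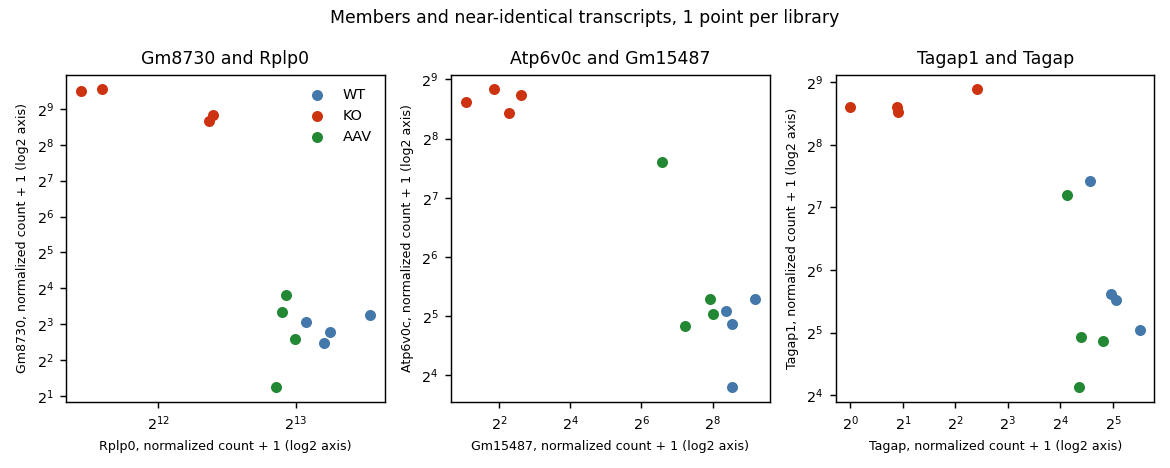
Normalized count plus 1 (log2 axes) of 3 members against their near-identical transcripts, 1 point per library. KO libraries sit at the upper left of each panel, where the member is high and its copy is low, and AAV 4 is the AAV point with 193.6 of Atp6v0c.

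Predicted and uncharacterised genes make up the last 7 members. 1700001O22Rik had 916, 1296.4, 1389 and 1763.1 in KO and 14.63 to 705.1 in the others, with WT 3 and AAV 3 the highest of the 8. Gm10032, a lincRNA in GENCODE M21, had 77.3, 68.41, 106.6 and 59.24 in KO and at most 7.09 elsewhere. BC048679 had 54.11, 182.1, 165.3 and 53.05 in KO and 0.90 to 21.1 in the others. Gm6472, a transcribed pseudogene of Rps7, had 303.4 to 636.3 in KO against 59.05 to 95.64, and its sum with Rps7 stayed above all others. 2010315B03Rik and Gm13225, named Zfp990 in GENCODE M21, completed the group.

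Among the 8 other libraries, the members were most often highest in WT 3 and AAV 3, 1 library of each label. The highest of the 8 values fell in WT 3 for 17 members and in AAV 3 for 15, in 32 of 62 together. Those shares, 27.4% and 24.2%, compare with 20.7% and 8.4% of all coding genes. WT 2 held it in 2 members (3.2%, against 17.8%) and AAV 4 in 3 (4.8%, against 12.9%), although these are the libraries with KO-like Gaa. The median position of the members, relative to their own mean over the 8, was -0.24, -0.64, 0.59 and -0.52 in WT 1 to 4 and 0.17, 0.38, 0.51 and -0.53 in AAV 1 to 4, against 2.72, 2.61, 2.78 and 2.90 in KO. Within groups, the median SD of log2 values was 0.37 in KO, 0.91 in WT and 0.88 in AAV, where all coding genes gave 0.18, 0.35 and 0.31. Members were lower in level, with a median mean value of 34.95 against 320.6 for all coding genes. For members with a KO mean of at least 100, the median SD was 0.33 in KO, 0.85 in WT and 1.01 in AAV. For the 28 members with a KO mean of at least 100, the median Pearson correlation between pairs over these 8 libraries was 0.43, against 0.01 for pairs among 9009 genes. The pairs share the same 8 libraries and their scaling, and the value is a description. The share of counts from mitochondrial genes was 5.75%, 3.64%, 10.04% and 6.00% in WT 1 to 4 and 6.11%, 6.75%, 4.79% and 3.11% in AAV 1 to 4, against 6.28% to 8.24% in KO. It was highest in WT 3 and lowest in WT 2 and AAV 4, where the members' medians were lowest, while AAV 3 was below AAV 1 and AAV 2. Its part in the members' levels was not tested.

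**Figure D4:**
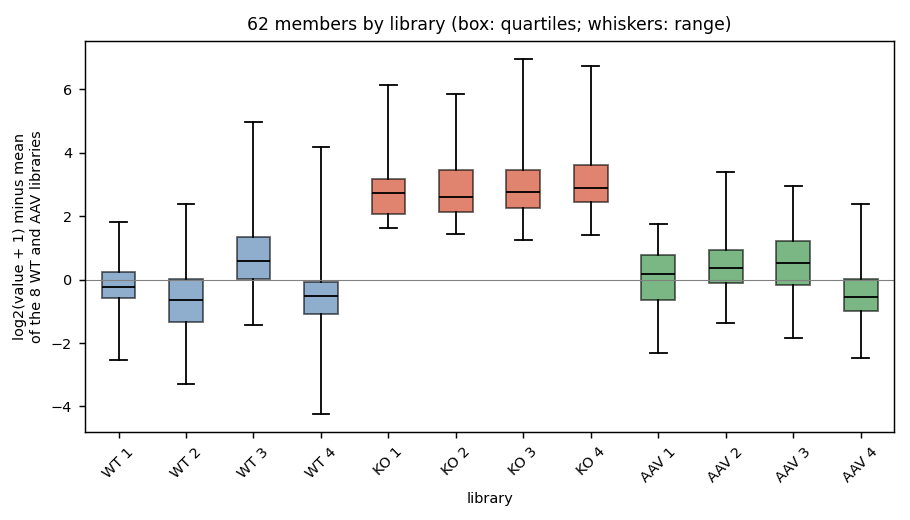
Distribution over the 62 members of log2(value + 1) minus the mean of the 8 WT and AAV libraries, by library (box, quartiles with the median line, whiskers, range). The KO medians lie between 2.61 and 2.90, and WT 3 and AAV 3 have the highest medians of the 8 others at 0.59 and 0.51.

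Marker genes of other cell types were set beside this pattern. The 10 macrophage markers in the tables summed to 4689.1, 4505.2, 1718.2 and 5440.1 in WT, to 967.3 to 1752.3 in KO, and to 2293.4, 1771.9, 1045.2 and 5033.6 in AAV. WT 3 and AAV 3, where members were highest, had the lowest macrophage sum of their group, and none of the 10 was separated between KO and the others. The rank of WT 3 and AAV 3 by summed level among the 8 differed between lists. It was 3 and 2 for endothelial, 3 and 1 for fast fibre, and 8 and 6 for satellite cell genes. The 7 slow fibre genes summed to 3396 to 6629.9 in WT, 1111.6 to 1297.3 in KO and 2933.9 to 24409.6 in AAV, and 5 of the 7 lay below all others in KO. Outside the macrophage and slow fibre lists, single neuron and endothelial genes and 2 of 11 fast fibre genes lay above all others in KO. There, 1 tendon and 1 fast fibre gene lay below. The Schwann cell, adipocyte, fibroblast, satellite cell, lymphocyte, erythroid, epidermis and hepatocyte lists gave none (0). Of 17 denervation genes 4 lay below, of 15 Eph and neurotrophin genes 1 above and 2 below, and of 18 BCL2 family genes 2 above and 2 below. All coding genes gave 6.20% above and 12.9% above or below, and no list was tested against that share. None of the marker lists holds a member, and no marker was at 0 in all libraries. The part of these differences in the members' levels was not tested.

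AAV against WT was the contrast the rule did not use, although the rule required both groups to lie below KO. Shares among the members are therefore not fully comparable with those of all genes. Of the 62 members, 44 reached a value of 10 in at least 1 of the 8 libraries and 18 did not. The 44 passed on their WT or AAV values. limma with a trend called no member (0 of 44) at a Benjamini-Hochberg adjusted p under 0.05 and a log2 change of at least 1, where it called 142 of 14939 genes (0.951%), 109 of them higher and 33 lower in AAV. At an unadjusted p under 0.05 there was 1 member and 2719 genes. That number of members was 13 without WT 3 (3663 genes) and 6 without AAV 4 (2834 genes). It was 0 to 2 without any other single library (1857 to 2706 genes). With the replicate block it was 9 (3215 genes), and with all 12 libraries in 1 fit it was 7 (3653 genes). DESeq2 and edgeR on the recovered reads called none (0) as well. They gave 4 and 3 members at an unadjusted p under 0.05, where all genes gave 2903 and 2619. The lowest adjusted p of a member was 0.224 (limma, Cd209g). The count over all genes is unsteady: it was 417 with DESeq2, 10 without WT 2 and AAV 4, and 18 to 330 when any 1 of the 8 libraries was left out. With so few genes called in all, the count of 0 says little about the members.

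In direction, 29 of the 44 members were higher in AAV and 15 lower, with a median of 0.35 (log2) against -0.03 for all genes tested, and a range of -1.73 (Guca1b) to 2.49 (Dkk3). The median standard error was 0.66 for members and 0.25 for all genes. Of the 44 values, 23 were smaller than their own standard error and 6 were over 2 standard errors. Dkk3, with the largest value, had a standard error of 1.93 and an adjusted p of 0.516 (limma). The values of AAV and WT did not overlap in 2 members, against 11.7% of all genes. Trim34a was higher in AAV, by 0.96 with a standard error of 0.45 and an adjusted p of 0.292 (limma). Cd209g had 4.52, 8.5, 5.68 and 10.73 in WT and 1.38, 4.03, 3.54 and 0.92 in AAV, a change of -1.33. In exact two-sided permutation tests of the 37 named members, these 2 reached the smallest p that 4 against 4 can give (0.0286), which was 0.529 after Benjamini-Hochberg adjustment over the 37. Without WT 3, limma called 1 of 43 members, Shc2, higher in AAV by 1.84 (adjusted p = 0.0491), where 330 of all genes were called. WT 3 had 387.1 of Shc2 against 46.77 to 54.62 in the other WT libraries.

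**Figure D5:**
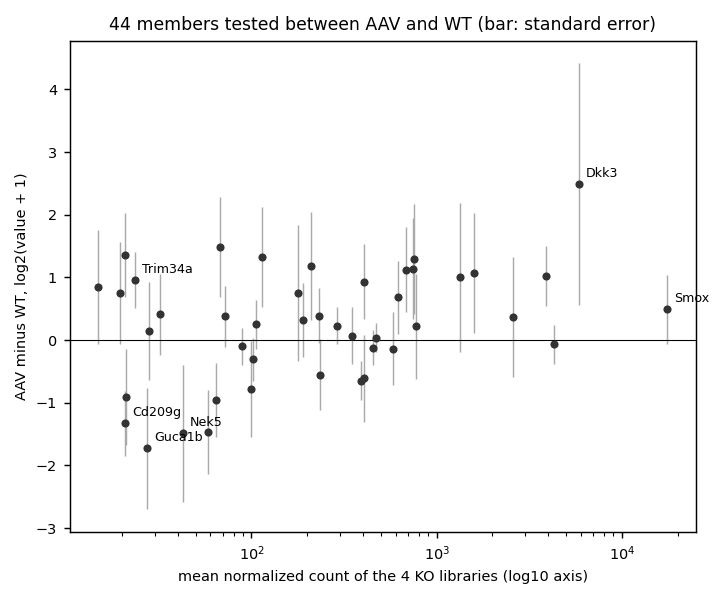
AAV minus WT on the log2(value + 1) scale (points, with standard error bars from limma) against the mean KO normalized count (log10 axis) for the 44 members tested. Values run from -1.73 (Guca1b) to 2.49 (Dkk3), with wide bars on both sides of 0.

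Outside the members, the coding genes whose pattern over the 12 libraries was most like the members' mean profile were Ccdc91 (Pearson r = 0.984 over 12 libraries), Deptor (0.980), Zfp27 (0.976), Tox4 (0.970) and Aldh4a1 (0.969). They lay above all others in KO with differences of 0.84 to 1.76, under the threshold of 2. Deptor, which binds and inhibits mTOR kinase, had 5771.2, 5151.5, 6776.3 and 6383.9 in KO, against 1323.5 to 2185.7 in WT and 1498.6 to 2259.3 in AAV.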

How the data were processed

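RNA-Seq of 12 quadriceps was analysed. Per the labels and methods, the authors trimmed reads (Trim Galore 0.4.1), mapped them to GRCm38 with STAR, kept single-location reads, counted them per gene (HTSeq 0.6.1) and divided each library by a DESeq2 1.16.1 size factor. The deposited signal values are these normalized counts, in 2 tables of 15344 genes whose KO columns were identical. Dividing by the smallest step of its library turned each value into a whole number of reads (tolerance 0.1). The tables also hold the authors' log2 fold changes, standard errors, statistics and p-values, which were not used. No per-sample column was left out (0).

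The test planned for counts was replaced, because values were normalized, by limma 3.58.1 with a trend on log2(value + 1) for AAV against WT, over genes reaching 10 in any of these 8 libraries, with p-values adjusted by Benjamini-Hochberg. DESeq2 1.42.0 and edgeR 4.0.16 on recovered reads, other scalings, filters and pseudocounts, and libraries left out were alternatives. The limma script was tested on simulated data. Coordinates came from GENCODE M21, promoters from RefSeq and copies from BLAST+ 2.17.0. The authors used release 73 gene models, so that M21 types can differ.

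Members, roles and the 20 gene lists were chosen with earlier results of these data known, and roles were assigned after the members' names were seen. Values are given for Gaa, the 10 members with the largest difference, the 10 with the highest KO mean, the members and non-members nearest the threshold, up to 4 of each role, members of the lists, and the 5 genes with the most similar pattern. Copies, overlapping genes and neighbours, and some members in passing, were picked out once their values had been seen. The full result of the glycogen particle list is not reported here. Replicate numbers stand for different animals, and p-values measure the spread between them. Depth limits members with few reads.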

Additional observations from a re-analysis of the deposited data

Results flagged for a closer look

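Among 114 groups of 4 libraries (37 named members and Gaa in each labelled group), 9 had a library set apart from the other 3 by more than Dixon's critical ratio on log2 values, and chance alone flags about 5% of groups. In 3 of these WT 3 was the high library. It had 387.1 of Shc2 against 46.77 to 54.62, 538.1 of Hlf against 52.09 to 59.72, and 280.0 of Slc2a3 against 80.95 to 97.73. AAV 4 was set apart in 2, with 193.6 of Atp6v0c against 27.56 to 38.26 in the rest of its group and 20.19 of Slc1a3 against 57.39 to 60.23. KO 3 was low for Pla2g7, at 3258.7 against 4466.5 to 4727.6. WT 2 had 14640.2 of Gaa against 323.8 to 460.3. In the last 2 groups a single read set a library apart from values of 0, with 1.38 of Trim12a in AAV 1 and 0.98 of Calm4 in WT 4.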

How the results depend on the processing

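The number of members was 62 and lay between 52 and 66 under both other scalings, a pseudocount of 0.1, both filters and without WT 2 and AAV 4. It lay between 54 and 82 when a library was left out in turn, with the most without WT 3 (82, 61 of them shared) and AAV 3 (79, 60 shared). A difference of at least 1 gave 277 members and one of at least 3 gave 23, and the rule for WT or AAV gave 26 and 1. The median difference stayed between 2.64 and 2.97, but members were picked anew in each setting and the cut of 2 holds this value up. For the same 62 genes it was 2.65 with scaling by total reads and 2.71 with the other scaling. Of 666 recomputed differences of the 37 named members, 53 moved by more than the KO SD, and their sign is fixed by the rule. Scaling by total reads shifted the median of all genes in AAV minus WT from -0.02 to 0.13. No member was called between AAV and WT except without WT 3, where the count was 1 (0 to 1 over libraries left out), and the members' median ran from 0.13 to 0.61. All genes called numbered 142, but 417 with DESeq2, 231 with edgeR on total reads, 398 with all 12 libraries, 10 without WT 2 and AAV 4, and 18 to 330 with a library left out, where each of the 8 libraries moved the count by over 1.5 times. The cause was not tested. Members passing the exact test singly numbered 2, and 0 to 3 with a library left out. That test was not run without both WT 2 and AAV 4, where 0.10 is the smallest p.

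The deviations of same-numbered WT and AAV libraries correlated at -0.073, -0.355, 0.554 and 0.478 for numbers 1 to 4, so that numbers 3 and 4 deviated together and 1 and 2 did not. The numbers name different animals and were not taken as pairs. With the replicate block, 0 members and 120 genes were called and the members' median was 0.35.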
